A study of Homo sapiens with 9 samples.

Results

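MDA-MB-231 is an established human line of triple-negative breast cancer, a tumour class defined by low or missing oestrogen receptor, progesterone receptor and HER2. The RNA profile of its control-transfected cells is described here without any contrast. The cells were grown in RPMI 1640 with 10% fetal bovine serum. In 6-well dishes they were reverse transfected, by means of Lipofectamine 2000, with AllStar, a negative control RNA duplex, at 10 nM. Total RNA was taken 48 h later, and 3 biological replicates were hybridised to Affymetrix HG-U133 Plus 2.0 arrays. The AllStar cells are 3 of the 9 samples of a series whose title names miR-34a and AXL. The other 6 received Qmimic or Dmimic at the same dose and time, 3 samples each, and their arrays appear below only where stated. All groups therefore share the line, the lipid reagent and the exposure to a transfected duplex, and no array of untransfected cells was used here. One line in culture is a model of 1 tumour, and it holds no stroma, vessels or leukocytes of its own.

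Breast epithelium has an inner luminal layer, which carries simple keratins, E-cadherin and hormone receptors, and an outer basal layer, which carries stratified keratins, basal integrins and contractile proteins. Epithelial cells that lose E-cadherin and gain vimentin, fibronectin and transcription factors such as ZEB1 are described as having shifted towards a mesenchymal state, a shift linked in breast cancer to motility and invasion. Hormone and growth factor receptors, secreted cytokines, proteases and cell cycle regulators are the other gene groups by which breast cancer lines are usually set apart.

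Every value below is a log2 signal from robust multichip averaging (RMA), and sets of 3 values are AllStar replicates 1, 2 and 3 in that order. A gene took the value of its brightest probe set, so 19775 genes were described. Because probes differ in how brightly they bind, an order of genes by signal is approximate. A floor was therefore set on each array from 82 olfactory receptor genes, which breast cells are not known to use, at the 95th percentile of their levels. It lay at 5.83, 5.77 and 6.17. A gene was called above the floor or at the floor when replicates 1 and 2 both said so, and replicate 3 served as the check. Genes at least 2 log2 units over the floor in both replicates are called clearly above, and the rest of those above are called marginal. No p-value was computed, since nothing was contrasted, and the floor says whether a signal stood over that of silent genes and not how many transcripts a cell held.

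Replicate 3 stood apart from the other 2. Its gene levels correlated with theirs at r = 0.983, across genes, against 0.999 between replicates 1 and 2. The interquartile range of its probe set signals was 2.99, whereas the other 8 arrays of the series lay between 3.41 and 3.53. Clearly expressed genes were lower in it by a median of 0.38 and genes at the floor were higher by a median of 0.22. Its compressed scale touches every value of replicate 3 given below, and its cause was not tested.

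Of the 19775 genes, 11613 (58.7%) were above the floor, 7805 (39.5%) were at the floor and 357 were split between the 2 replicates. Clearly above were 7009 genes (35.4%), and 4604 were marginal. These shares over all genes, 58.7% above and 35.4% clearly above, are the background for every list below. All 7009 clear genes were above the floor in replicate 3 too, and on all 6 mimic arrays. The marginal class held less firmly, with 3820 of 4604 (83.0%) above the floor in replicate 3. Of the genes at the floor, 7601 (97.4%) were at the floor in replicate 3. Of the 11613 genes above the floor, 10829 (93.2%) were above it in replicate 3. With each gene's probe set picked by all 3 arrays, and the floors set again, 10851 genes were above on all 3. Markers of cell types that the culture is not known to hold also reached the marginal class. None of 28 leukocyte genes and none of 32 markers of liver, neurons, melanocytes, muscle and fat was clearly above the floor, but 8 and 9 of them, the pigment enzyme TYR and the T helper cell antigen CD4 among them, were marginal. PTPRC, the common leukocyte antigen CD45, gave 3.73, 3.84 and 4.46, and ALB, serum albumin, gave 3.88, 3.98 and 3.91. A marginal signal is given below as a value and not as expression.

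**Figure D1:**
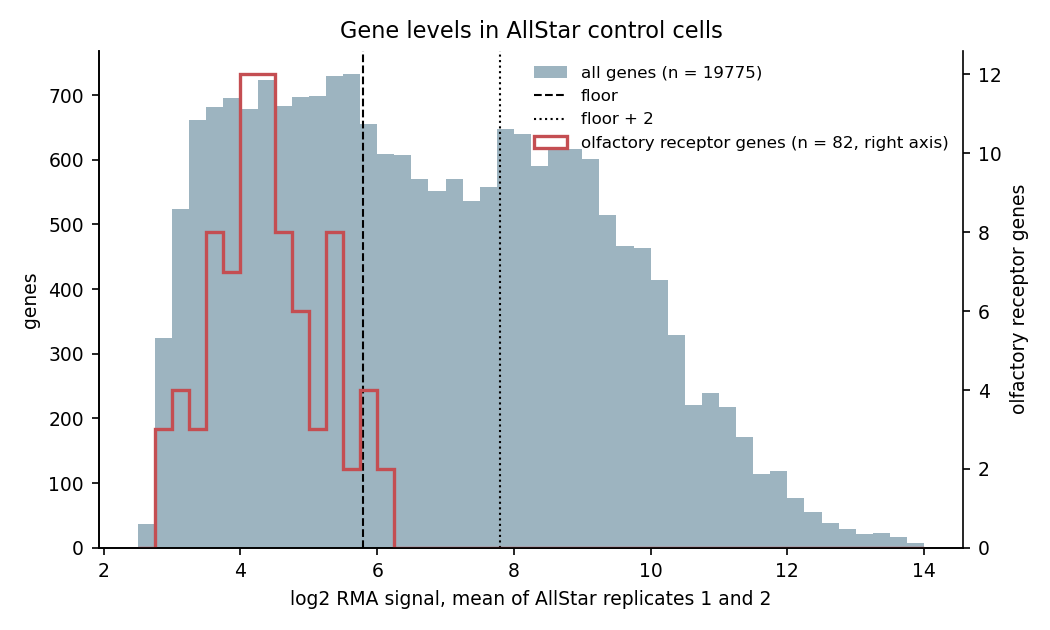
Histogram of the log2 RMA signal (x axis, mean of AllStar replicates 1 and 2) of 19775 genes (left axis, grey) and of the 82 olfactory receptor genes (right axis, red line). The dashed line is the mean floor of the 2 arrays and the dotted line lies 2 log2 units above it. The olfactory receptor genes end near the floor, and 7009 genes lie beyond the dotted line on both arrays.

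The brightest genes were those of protein synthesis, mitochondrial respiration, the cytoskeleton and glycolysis. The upper 25 ran from EEF1A1, a translation elongation factor at 13.90, 13.90 and 13.74, down to ND2, a subunit of respiratory complex I encoded in mitochondrial DNA, at 13.55, 13.47 and 13.55. Between them lay ACTB (beta-actin), GAPDH (a glycolytic enzyme), TMSB10 (an actin-binding thymosin), TUBA1B (alpha-tubulin), UBB (ubiquitin), S100A6 (a calcium-binding protein), PPIA (cyclophilin A), 11 ribosomal protein genes and the mitochondrially encoded ND4, ATP6, COX1 and COX2, the last being cytochrome oxidase subunit 2 and not the prostaglandin enzyme. The intermediate filament gene VIM ranked 10. All 25 ranked within the first 26 in replicate 3. Among the upper 100 genes, 47 encoded ribosomal proteins, 10 the cytoskeleton, 4 glycolytic enzymes and 3 S100 or annexin proteins. All 17 glycolytic enzymes measured were above the floor, 16 of them clearly. The secreted IGF-binding proteins IGFBP7 and IGFBP4, ranked 88 and 99, and the metallothionein MT2A, ranked 75, also fell in the upper 100.

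The mesenchymal genes were mostly expressed, and part of the classical transcription factor set was not. Of 33 measured, 21 (63.6%) were above the floor, against 58.7% of all genes, and 19 (57.6%) were clearly above, against 35.4%. The median level of the list was 9.01, beside 6.57 over all genes. VIM, vimentin, gave 13.68, 13.68 and 13.53. LGALS1, the secreted lectin galectin-1, gave 13.07, 13.09 and 12.81. S100A4, a calcium-binding protein linked to metastasis, gave 12.07, 11.91 and 11.64. The replicates of these genes lay within 0.5 log2 units, with replicate 3 the lowest each time. CD44, the hyaluronan receptor, gave 11.97, 11.87 and 11.77, and 9 of its 13 probe sets were above the floor. FN1, fibronectin, gave 11.58, 11.52 and 11.14. MSN, the membrane linker moesin, gave 11.79, 11.82 and 11.39.

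Transcription factors of this group were divided. ZEB1, a repressor of E-cadherin, gave 9.96, 9.96 and 9.60, and 3 of its 4 probe sets were above the floor. SNAI2, the repressor Slug, gave 9.03, 8.98 and 8.25. Both were thus clearly above the floor on every array. TWIST1 gave 2.88, 2.99 and 3.08, TWIST2 gave 3.98, 3.97 and 4.34 and ZEB2 gave 5.21, 4.86 and 4.17, all at the floor. SNAI1, the repressor Snail, lay at the floor in replicates 1 and 2 and above it in replicate 3, at 5.67, 5.73 and 6.55. SPARC, a matrix protein of mesenchymal cells, gave 3.44, 3.76 and 4.19, with both of its probe sets at the floor, and POSTN, periostin, gave 3.19, 3.20 and 3.20. CDH2, N-cadherin, gave 5.49, 5.42 and 6.15, at the floor in replicates 1 and 2. The classical cadherin of the list that was clearly above the floor was CDH11, a cadherin of mesenchyme, at 7.99, 8.03 and 7.31. Its value in replicate 3 is the lowest of the 3 and is still above that array's floor.

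Luminal genes were split the other way, with simple keratins clear and E-cadherin, FOXA1 and ESRP1 at the floor. Of 32 measured, 17 (53.1%) were above the floor, 11 (34.4%) clearly, and 13 were at the floor, so the shares lay near those of all genes. KRT18 and KRT8, the keratin pair of simple epithelia, gave 12.50, 12.50 and 12.19 and 10.55, 10.66 and 10.22. KRT19, a further simple keratin, gave 12.06, 12.09 and 11.56. KRT7, a keratin of glandular ducts, gave 10.05, 10.04 and 9.50. All of these keratins were clearly above the floor on the 3 arrays, whereas 36 of the 44 keratin genes measured were at the floor. CDH1, E-cadherin, gave 3.59, 3.76 and 4.02, and both of its probe sets were at the floor. The pioneer factor of luminal cells FOXA1 gave 3.76, 4.07 and 4.17, again with both probe sets at the floor, and the splicing factor ESRP1, which acts in epithelial cells, gave 4.83, 4.86 and 4.65. ELF5, a factor of luminal progenitors, gave 3.66, 3.62 and 3.57, and SCGB2A2, mammaglobin, gave 2.92, 2.93 and 3.08. All 5 were below the floor on every AllStar array.

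The epithelial transcription factors EHF and SPDEF, both of the ETS family, were nevertheless clearly above the floor. EHF gave 10.03, 10.01 and 9.38, with 6 of 6 probe sets above the floor, and SPDEF gave 9.39, 9.36 and 9.40, with 5 of 5. All 5 SPDEF probe sets are of the _x_at kind, which may bind other transcripts, and none was lower in replicate 3. The tight junction gene CLDN7 gave 9.34, 9.32 and 9.06. GATA3, a luminal transcription factor, gave 8.35, 8.34 and 7.45, but on 1 of its 3 probe sets, and the other 2 were at the floor. EPCAM, the epithelial adhesion molecule, gave 8.24, 8.36 and 7.25 on its single probe set. Both were lower in replicate 3 by about 1 log2 unit and still above its floor. In RNA from a whole culture, fewer cells that express a gene and less RNA in each cell cannot be told apart, which applies to every middling value here. CD24, a surface protein of luminal cells, was marginal at 6.61, 6.35 and 6.08 and at the floor in replicate 3, with 1 of 6 probe sets above the floor.

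Basal genes were above the floor about as often as all genes. Of 23 measured, 14 (60.9%) were above the floor, against 58.7% of all genes, and 8 (34.8%) clearly, against 35.4%. CAV1, CAV2, ITGA6 and LAMB3 were among the clear members, and none of the keratins measured in the list was. CAV1, caveolin-1, gave 12.29, 12.28 and 12.13. SFN, the 14-3-3 sigma protein, gave 11.55, 11.60 and 10.91, and ITGA6, the laminin-binding integrin alpha 6, gave 11.20, 11.10 and 10.58. LAMB3, a chain of laminin-332, gave 11.12, 11.17 and 10.81. These lay far over the floor on every array. KRT14 gave 4.21, 4.23 and 4.18, KRT16 gave 4.60, 4.89 and 5.33 and KRT5 gave 5.11, 5.30 and 5.54, these 3 stratified keratins being at the floor throughout. KRT15, a further basal keratin, was marginal in replicates 1 and 2 and at the floor in replicate 3, at 6.13, 6.10 and 5.95. The desmosomal cadherins DSC3 and DSG3 gave 3.27, 3.54 and 3.57 and 5.09, 5.12 and 5.90, also at the floor. CDH3, P-cadherin, gave 5.42, 5.51 and 5.46. The smooth muscle actin gene ACTA2 was marginal in replicates 1 and 2 and at the floor in replicate 3.

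**Figure D2:**
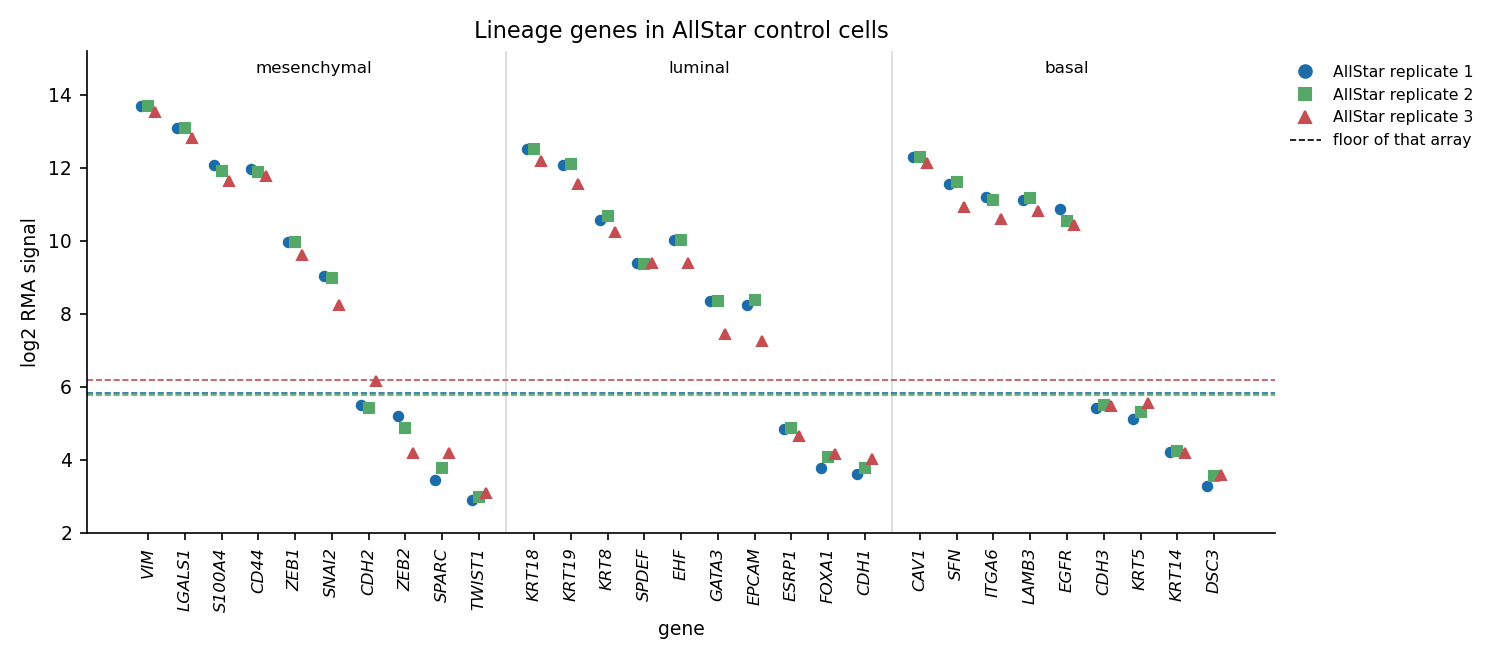
Log2 RMA signal (y axis) of 29 mesenchymal, luminal and basal genes (x axis) on the 3 AllStar arrays, 1 symbol per array, with each array's floor as a dashed line of its colour. VIM, KRT18 and CAV1 lie above 12 on every array, whereas TWIST1, CDH1 and DSC3 lie below every floor.

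Among nuclear receptors the glucocorticoid receptor gave the highest signal, the oestrogen receptor was marginal and the progesterone receptor was at the floor. Of 35 measured, 21 (60.0%) were above the floor, 10 (28.6%) clearly and 11 marginally. NR3C1, the glucocorticoid receptor, gave 10.98, 10.91 and 10.43, with 5 of 5 probe sets above the floor. NR2F6, an orphan receptor, gave 10.17, 10.12 and 9.79, and the retinoid X receptor RXRB gave 9.58, 9.60 and 9.74. PGR, the progesterone receptor, gave 3.97, 4.11 and 4.72, with both probe sets at the floor. ESR1, oestrogen receptor alpha, was marginal at 6.77, 6.74 and 7.45, the replicate 3 value being the highest. Of its 9 probe sets, 3 were above the floor and 5 were at it. Those 3 are of the _x_at kind, which may bind other transcripts, or of the _s_at kind. No ESR1 probe set of another kind was above the floor, and the lowest gave 3.21, 3.61 and 3.47. RARB, a retinoic acid receptor, gave 4.89, 4.85 and 4.77, at the floor.

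Among receptor tyrosine kinases, AXL gave the highest signal. Of 50 measured, 25 (50%) were above the floor, against 58.7% of all genes, and 12 (24.0%) clearly, against 35.4%. AXL, a receptor for the ligand GAS6, gave 12.27, 12.31 and 12.76, with the highest value in replicate 3. Its other probe set was also above the floor. On the 6 mimic arrays AXL lay between 11.54 and 11.85. The ligand gene GAS6 itself was clearly above the floor at 10.96, 10.93 and 10.74. EGFR gave 10.85, 10.54 and 10.43, with 5 of 9 probe sets above the floor, and MET, the receptor for hepatocyte growth factor, gave 10.68, 10.63 and 10.18. The ephrin receptor EPHA2 gave 10.41, 10.38 and 9.63. ERBB2, which encodes HER2, gave 8.60, 8.62 and 8.11 on 1 of its 3 probe sets, and the other 2 were at the floor. ERBB4 gave 4.26, 4.11 and 4.54 and PDGFRA, a receptor of mesenchymal cells, gave 4.13, 4.14 and 4.44, both at the floor. EPHA3 was the lowest of the list at 3.47, 3.47 and 3.72.

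Of 52 G protein-coupled receptors for chemokines, lipids, proteases and WNT ligands, 28 (53.8%) were above the floor, 15 (28.8%) clearly. CXCR4, the receptor for the chemokine CXCL12, gave 10.08, 10.15 and 9.48, with 3 of 3 probe sets above the floor. ADORA2B, an adenosine receptor, gave 10.96, 10.95 and 10.72, and ADGRE5, the adhesion receptor CD97, gave 11.05, 11.003 and 10.59. FZD6 and FZD2, receptors for WNT proteins, gave 10.20, 10.15 and 9.32 and 10.24, 10.11 and 9.89. The chemokine receptors CCR7, CCR6 and CXCR2 were at the floor, CCR7 at 3.19, 3.14 and 3.55. CXCR4 was therefore clear where these other chemokine receptors were not detected over the floor.

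Secreted growth factors clearly above the floor included a WNT antagonist, matricellular proteins and angiogenic factors. Of 68 measured, 45 (66.2%) were above the floor, against 58.7% of all genes, and 25 (36.8%) clearly, near the 35.4% of all genes. DKK1, a secreted WNT antagonist, gave 12.49, 12.52 and 12.40. CCN1 and CCN2, matricellular proteins induced by growth factors and by YAP, gave 12.40, 12.37 and 12.19 and 12.15, 12.21 and 11.94. VEGFA, which drives vessel growth, gave 12.10, 11.93 and 11.65, and PDGFC, a platelet-derived growth factor, gave 11.19, 11.25 and 10.92. These 5 genes varied by less than 0.5 log2 units between arrays. SFRP1, another secreted WNT antagonist, was at the floor. The EGFR ligand EGF gave 4.13, 4.18 and 3.80, at the floor, whereas HBEGF, another ligand of EGFR, was clearly above it at 9.79, 9.82 and 9.46. FGF7 and FGF10, fibroblast growth factors of stroma, gave 3.31, 3.32 and 3.997 and 3.59, 3.55 and 4.01, and GREM1, a BMP antagonist, gave 3.22, 3.20 and 3.12.

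Most cytokines and chemokines were at the floor. Of 60 measured, 24 (40%) were above the floor, 6 (10.0%) clearly, and 36 were at the floor. The list's median level was 5.15. The 6 clear members were MIF, CSF1, LIF, TNFSF10, IL11 and CXCL8. MIF, the macrophage migration inhibitory factor, gave 12.69, 12.69 and 12.44. CSF1, which supports macrophages, gave 10.02, 9.82 and 9.67, and LIF, a cytokine of the IL6 family, gave 8.98, 9.12 and 9.01. TNFSF10, the death ligand TRAIL, gave 8.84, 8.87 and 8.17. CXCL8, the neutrophil chemokine interleukin-8, gave 7.96, 8.01 and 7.60, with both probe sets above the floor, and IL6 was marginal at 7.58, 7.69 and 7.43. The chemokines CXCL1 and CXCL2 were marginal and fell to the floor in replicate 3, CXCL1 at 6.26, 6.09 and 5.83. CXCL5 gave 3.06, 2.90 and 3.30, CCL2 gave 3.73, 3.62 and 4.08 and TSLP, an epithelial cytokine, gave 2.95, 2.77 and 3.24, all at the floor on the 3 arrays.

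The promoter windows of some of these genes carry a TATA box, a motif near the start of transcription that occurs often in strongly inducible genes. They are shown because secreted factors clearly above the floor and at it can both have one. Each run is the 120 bases before a start that RefSeq annotates, on the gene's strand of GRCh38.p14, with TATAAA in capitals. Where several starts were listed for a gene, the first listed was taken, here and in all promoter shares below. The start used in these cells was not measured.
CCN2, chr6:131951373-131951492, minus strand: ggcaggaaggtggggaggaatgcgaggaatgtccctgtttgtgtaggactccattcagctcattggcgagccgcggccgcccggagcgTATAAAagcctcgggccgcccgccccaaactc
DKK1, chr10:52314161-52314280, plus strand: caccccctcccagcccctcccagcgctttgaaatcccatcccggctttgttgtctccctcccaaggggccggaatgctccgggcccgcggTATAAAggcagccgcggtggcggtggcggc
CXCL8, chr4:73740449-73740568, plus strand: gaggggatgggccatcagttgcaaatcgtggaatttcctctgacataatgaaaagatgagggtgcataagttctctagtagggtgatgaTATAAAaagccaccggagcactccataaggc
IFNB1, chr9:21077943-21078062, minus strand: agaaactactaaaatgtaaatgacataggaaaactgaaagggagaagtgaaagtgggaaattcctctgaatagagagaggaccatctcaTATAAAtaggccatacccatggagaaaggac
The motif begins 32 bases before the start in CCN2, 30 in DKK1, and 31 in CXCL8 and IFNB1. The first 3 genes were clearly above the floor and IFNB1, interferon beta, was at it, at 4.03, 4.03 and 4.25. IFNB1 lies in the chromosome 9 stretch described below, whose DNA was not tested. Among the cytokines and chemokines at the floor that had a window, 8 of 29 (27.6%) carried TATAAA between 40 and 15 bases before the start, on the gene's strand, against 5.08% of all genes at the floor and 2.98% of all 15360 windows. Of the clear cytokines with a window, 2 of 4 (50%) carried it. In the growth factor list, which holds CCN2 and DKK1, 4 of 19 clear genes with a window (21.1%) carried it. There, 0 of 13 genes at the floor did.

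The 6 proteases and inhibitors of highest signal were TIMP1, TIMP2, CST3, PLAU, PLAT and ADAM10. Of 57 measured, 40 (70.2%) were above the floor, 27 (47.4%) clearly. TIMP1 and TIMP2, inhibitors of metalloproteinases, gave 12.35, 12.32 and 12.11 and 12.07, 12.02 and 11.72. PLAU, urokinase, gave 11.64, 11.65 and 11.56, and PLAT, tissue plasminogen activator, gave 11.31, 11.27 and 11.001. CST3, the cathepsin inhibitor cystatin C, gave 11.88, 11.85 and 11.75, and ADAM10, a sheddase, gave 10.97, 10.87 and 10.52. PLG, plasminogen, the substrate of PLAU and PLAT, was at the floor in replicates 1 and 2, at 5.37, 5.51 and 6.17. The urokinase receptor PLAUR was clear at 10.55, 10.70 and 10.52. The collagenase MMP1 gave 9.71, 9.76 and 9.10 and the membrane-bound MMP14 gave 9.65, 9.63 and 9.83. MMP9, a gelatinase, was marginal at 5.93, 6.06 and 6.51, whereas MMP3, MMP7 and MMP12 were at the floor, MMP3 at 3.43, 3.43 and 3.40. SERPINB5, the serpin maspin of normal breast epithelium, gave 3.24, 3.45 and 3.63, far below the floor on every array.

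**Figure D3:**
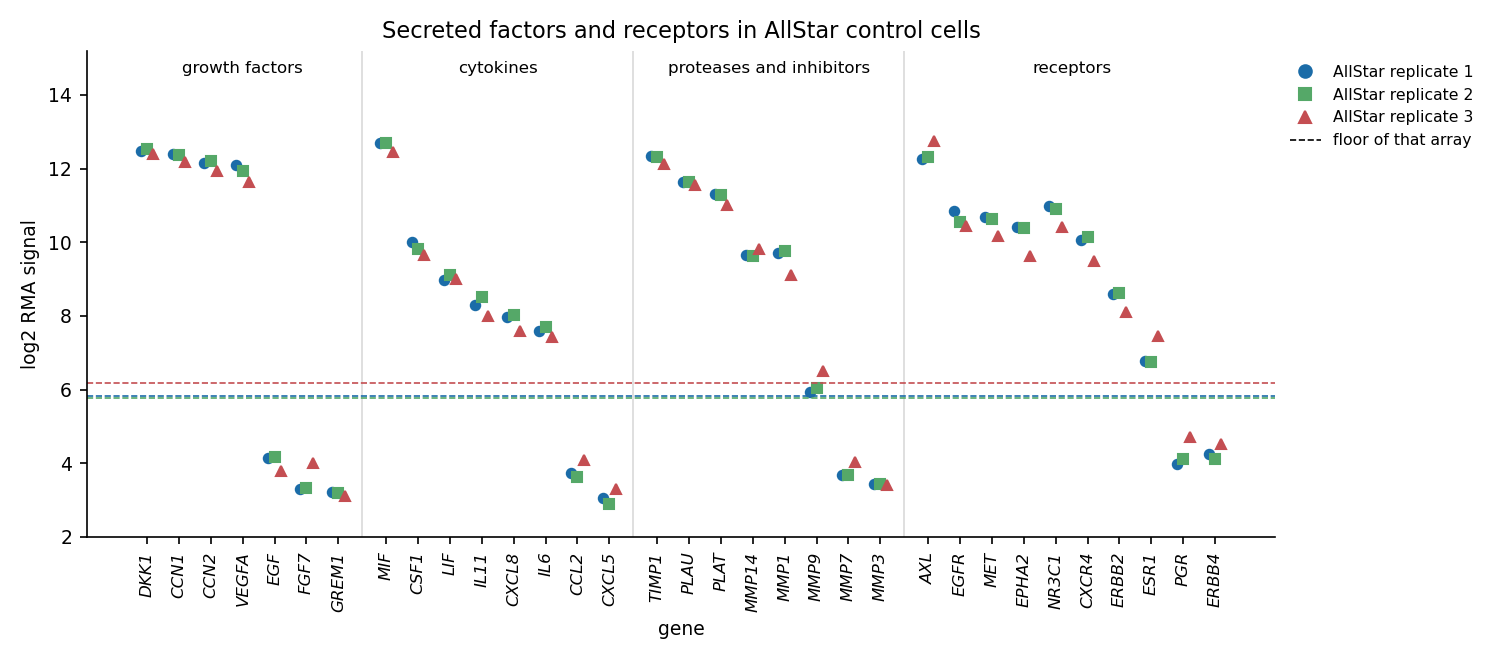
Log2 RMA signal (y axis) of 33 growth factor, cytokine, protease and receptor genes (x axis) on the 3 AllStar arrays, 1 symbol per array, with each array's floor as a dashed line of its colour. DKK1, MIF, TIMP1 and AXL lie above 12 on every array, and EGF, CXCL5, MMP3 and PGR lie below every floor.

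Matrix genes of highest signal included a transmembrane collagen, fibronectin and a laminin chain. Of 52 measured, 29 (55.8%) were above the floor, 22 (42.3%) clearly. COL13A1, a transmembrane collagen, gave 11.94, 12.06 and 11.48, and COL8A1, a network-forming collagen, gave 10.68, 10.74 and 10.19. EFEMP1, the fibulin-3 gene, gave 11.05, 11.005 and 10.70, and THBS1, thrombospondin-1, gave 10.81, 10.72 and 10.21. The fibrillar collagen COL3A1 gave 3.90, 4.04 and 3.93, at the floor, and COL1A1 was marginal at 7.14, 7.36 and 7.30. LUM, lumican, gave 3.33, 3.46 and 3.56, and SPP1, osteopontin, gave 3.19, 3.07 and 3.50, both at the floor. Among basement membrane genes, LAMC1, a laminin chain, and COL4A2, a type IV collagen, were clear at 10.50, 10.52 and 10.25 and 10.25, 10.19 and 10.08, whereas NID2, nidogen-2, was at the floor at 3.22, 3.22 and 3.55. COL6A3, a collagen of stroma, was clear at 8.84, 8.96 and 8.16, so neither kind lay on one side of the floor.

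Integrin chains that bind collagen or laminin were found both clearly above the floor and at it. Of 25 measured, 18 (72.0%) were above the floor, against 58.7% of all genes, and 9 (36.0%) clearly, near the 35.4% of all genes. ITGB1, the beta 1 chain shared by many integrins, gave 12.53, 12.51 and 12.33. The collagen-binding ITGA2 gave 10.71, 10.73 and 10.32, the laminin-binding ITGA3 gave 10.52, 10.45 and 10.42, and ITGB5, a partner of the alpha V chain, gave 10.43, 10.40 and 10.23. Of other collagen-binding chains, ITGA1 was marginal and at the floor in replicate 3, at 6.20, 6.29 and 6.01. ITGA11 was at the floor on every array, at 5.23, 5.15 and 5.36. ITGA4 and ITGAX, integrins of leukocytes, gave 3.64, 3.61 and 4.05 and 4.80, 4.84 and 5.26, at the floor. Of the 7 integrins at the floor, only 4 were at it in replicate 3 too. ITGAE, which pairs with the beta 7 chain, gave 10.83, 10.83 and 10.50, and ITGB7 itself was marginal at 6.44, 6.49 and 7.17.

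Junction genes held clear cytoplasmic linkers while several of the cadherins were at the floor. Of 55 measured, 27 (49.1%) were above the floor, 17 (30.9%) clearly, and 27 were at it. CTNNA1, alpha-catenin, gave 11.64, 11.64 and 11.16, and CTNNB1, beta-catenin, gave 9.61, 9.68 and 9.47. DSP, desmoplakin, gave 10.55, 10.43 and 10.10, and its membrane partner DSG2 gave 10.64, 10.55 and 10.06. TJP1, the tight junction scaffold ZO-1, gave 10.36, 10.39 and 10.09. In contrast DSG1 gave 2.99, 3.17 and 3.02 and the endothelial cadherin CDH5 gave 3.58, 3.49 and 3.56. DSG2 was thus clear where DSG1, DSG3 and DSC3 were at the floor.

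Of 51 other surface proteins, 39 (76.5%) were above the floor, against 58.7% of all genes, and 30 (58.8%) clearly, against 35.4%. ANXA2, the membrane-binding annexin A2, gave 13.46, 13.47 and 13.35. NT5E, the ectonucleotidase CD73, gave 11.69, 11.67 and 11.26, CD59, an inhibitor of complement, gave 11.90, 11.85 and 11.58, and the tetraspanin CD63 gave 12.07, 12.01 and 11.76. CD274, the checkpoint ligand PD-L1, was clear at 8.99, 9.09 and 8.80, with both probe sets above the floor. PROM1, the surface protein CD133, gave 2.83, 3.01 and 2.99, and VCAM1, a ligand for leukocyte integrins, gave 3.31, 3.67 and 3.74, both at the floor. These values place CD44 and CD73 with the clear genes and CD24 and CD133 outside them.

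Antigen presentation genes were clear for class I and only partly so for class II. Of 32 measured, 27 (84.4%) were above the floor, 21 (65.6%) clearly. B2M, the light chain of class I, gave 12.86, 12.81 and 12.60. HLA-B gave 12.71, 12.64 and 12.37 and HLA-C gave 12.53, 12.48 and 12.25. The class I genes resemble each other in sequence, so their probe sets may share signal. CD74, the invariant chain of class II, gave 10.16, 10.08 and 10.41, and HLA-DRA gave 8.51, 8.38 and 8.55, whereas the class II regulator CIITA gave 5.22, 5.28 and 5.70 and HLA-DQA1 gave 4.11, 4.23 and 4.43, both at the floor. The lipid-presenting CD1D was the lowest of the list at 3.04, 3.22 and 3.14.

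Oncogenes and growth signalling genes were above the floor for 60 of 68 (88.2%), against 58.7% of all genes. Clearly above were 50 of them (73.5%), against 35.4%. HMGA1, an architectural chromatin protein, gave 12.82, 12.79 and 12.75. The small GTPases RHOA and RAC1, which organise the cytoskeleton, gave 12.63, 12.65 and 12.44 and 12.29, 12.30 and 12.26, and RHOC gave 11.55, 11.45 and 11.27. AURKA, a mitotic kinase, gave 11.47, 11.46 and 11.12, and MCL1, an anti-apoptotic protein, gave 11.41, 11.50 and 11.26. MYC gave 11.10, 11.08 and 10.83, CCND1, cyclin D1, gave 11.20, 11.19 and 11.07, FOSL1, an AP-1 subunit, gave 11.09, 11.10 and 10.85, and YAP1, a co-activator of the Hippo pathway, gave 10.84, 10.77 and 10.03. At the floor were CCND2, MYCL, GLI2, ERG, VAV1 and LCK, the last a kinase of T cells at 4.13, 4.31 and 4.47. The median level of the list was 9.49, beside 6.57 over all genes.

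Tumour suppressors were above the floor for 66 of 73 (90.4%), against 58.7% of all genes. Clearly above were 45 of them (61.6%), against 35.4%. DUSP6 and DUSP4, phosphatases that act on MAP kinases, gave 12.17, 12.07 and 11.57 and 11.27, 11.08 and 10.87. TGFBR2, a TGF-beta receptor, gave 11.40, 11.35 and 10.94. NME1, a nucleoside diphosphate kinase, gave 11.95, 12.000 and 11.67, and the mismatch repair gene MSH6 gave 10.98, 10.95 and 10.66. RB1, the retinoblastoma protein, gave 9.25, 9.21 and 8.42, with both probe sets above the floor. SMAD4, which transmits TGF-beta signals, gave 8.35, 8.26 and 7.17, on 2 of its 5 probe sets. At the floor were 7 genes, CDKN2A, CDKN2B, MTAP, SFRP1, RARB, NF1 and PDCD4. The values of NF1 and PDCD4 rest on 1 probe set each that the annotation gives to that gene alone, at 3.78, 4.04 and 4.25 and 3.42, 3.20 and 3.12. A further 9 probe sets for NF1 and 4 for PDCD4 are listed with several genes and were not used, so these calls are weakly founded.

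Of those 7, CDKN2A, CDKN2B and MTAP are neighbours on chromosome 9. CDKN2A encodes the cell cycle inhibitors p16 and ARF, CDKN2B encodes p15, and MTAP encodes an enzyme of methionine salvage that most tissues use. CDKN2A gave 5.54, 5.63 and 6.15, with 3 of 3 probe sets at the floor. CDKN2B gave 5.03, 4.64 and 5.33, with 2 of 2 at the floor, and MTAP gave 5.04, 5.13 and 5.16, with 6 of 6. By the probe set that stands for each gene, all 3 were at the floor on every AllStar array. In replicate 3 a second CDKN2A probe set read 6.40, over that array's floor of 6.17.

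The stretch reached further to both sides. In the gene order of RefSeq on GRCh38.p14, 25 neighbouring measured genes from FOCAD to ELAVL2 were all at the floor. They comprise 14 interferon genes, which cells are known to switch on mainly after infection, and 11 others. Among the others, KLHL9, an adaptor of a ubiquitin ligase, gave 3.75, 3.76 and 3.76, with 4 of 4 probe sets at the floor. FOCAD, focadhesin, gave 3.55, 3.68 and 4.02, and HACD4, an enzyme of fatty acid elongation, gave 3.50, 3.48 and 3.89. MIR31HG, the host transcript of miR-31, gave 4.79, 4.93 and 5.58, and DMRTA1 gave 4.78, 4.71 and 5.48. None of the 39 probe sets of the 25 genes was above the floor in replicates 1 and 2, and by the probe set that stands for each gene none of the 25 was above it in replicate 3. In that replicate the CDKN2A probe set just given was 1 of 39 above the floor. On all 6 mimic arrays 24 of the 25 were at the floor. The exception was CDKN2A, which passed the floor on the Qmimic replicate 2 array only, at 5.71 against a floor of 5.68. The genes on either side, MLLT3 at 7.36, 7.48 and 6.88 and TUSC1 at 8.63, 8.70 and 8.24, were above the floor. TUSC1 was clear, but MLLT3 was marginal, with 2 of its 3 probe sets above the floor. Beyond MLLT3, the next measured genes SMNP, SLC24A2 and ACER2 were again at the floor, so that edge rests on a marginal gene. Along the autosomes, 18994 ordered genes held 3828 runs of genes at the floor with a median length of 1 gene, and no other run reached 25. The next were runs of 24 genes on chromosomes 4 and 17. This stretch was picked from the values themselves. The arrays measured RNA, and the DNA of this region was not tested.

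**Figure D4:**
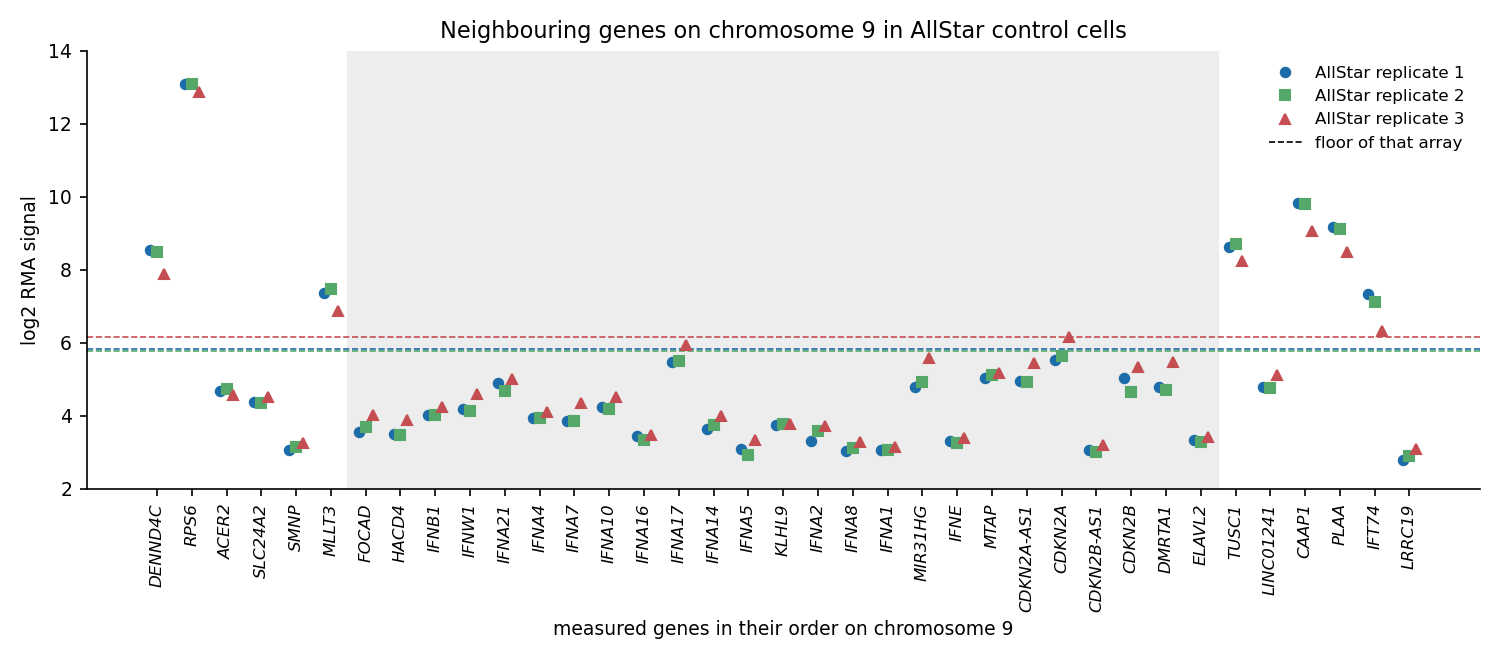
Log2 RMA signal (y axis) of measured genes in their order on chromosome 9 (x axis, order only and not distance) on the 3 AllStar arrays, 1 symbol per array, with each array's floor as a dashed line of its colour. The shaded span marks the 25 genes from FOCAD to ELAVL2, all at or below the floor of their array, between MLLT3 and TUSC1, which lie above it.

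Lineage transcription factors were above the floor for 41 of 58 (70.7%), against 58.7% of all genes. Clearly above were 23 of them (39.7%), near the 35.4% of all genes. HIF1A, the hypoxia factor, gave 12.12, 12.10 and 11.76, KLF6, a zinc finger factor, gave 10.97, 10.95 and 10.50, and SOX9, a factor of progenitor cells, gave 10.55, 10.38 and 10.19. NFE2L2, the oxidative stress factor NRF2, gave 10.68, 10.59 and 10.07. ID1, an inhibitor of helix-loop-helix factors, gave 9.97, 9.93 and 9.59. Its relative ID2 gave 4.12, 3.99 and 3.91, at the floor on both probe sets that the annotation gives to it alone. A further ID2 probe set listed with several genes was not used. SPI1, a factor of myeloid cells, gave 4.18, 4.23 and 4.66, and FOXF1, a factor of mesenchyme, gave 3.79, 3.99 and 4.001, both at the floor. TXNRD1, thioredoxin reductase, gave 11.62, 11.63 and 11.32, and NQO1, a quinone reductase, gave 11.08, 10.94 and 10.78. Of 33 genes of drug transport and metabolism, 24 (72.7%) were above the floor, 11 (33.3%) clearly. AKR1B10, an aldo-keto reductase, gave 3.62, 3.78 and 3.85, at the floor. The drug efflux pump ABCB1 gave 3.81, 4.09 and 4.25, the DNA repair gene MGMT gave 4.06, 3.93 and 4.42 on its single probe set, and ALDH1A1, an aldehyde dehydrogenase, gave 3.01, 2.95 and 3.51, all at the floor.

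Most cancer-testis genes were at the floor, with 5 of 29 (17.2%) above the floor and 3 (10.3%) clearly. The 3 clear ones, MAGED1, MAGED2 and SPAG9, are also expressed in many normal tissues. MAGED2 gave 9.64, 9.60 and 9.38. The testis-restricted MAGEA4 gave 3.31, 3.20 and 3.38 and BRDT gave 3.15, 3.08 and 3.59, at the floor. Of 23 fibroblast and endothelial markers, 9 (39.1%) were above the floor and 3 clearly, ESAM, COL6A3 and ROBO4. ESAM, an endothelial adhesion molecule, gave 9.93, 10.02 and 9.66, while the endothelial cadherin CDH5 and the fibroblast protease FAP, at 4.11, 4.11 and 4.11, were at the floor.

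Proliferation genes formed the one list with no member at the floor. All 32 measured were above it, 30 (93.8%) clearly, and the median level was 10.5, beside 6.57 over all genes. TYMS, thymidylate synthase, gave 12.36, 12.35 and 12.01, RRM2, a ribonucleotide reductase subunit, gave 12.09, 12.11 and 11.85, and TOP2A, topoisomerase II alpha, gave 12.19, 12.001 and 11.54. CCNB1, cyclin B1, gave 11.74, 11.67 and 11.48, UBE2C, an enzyme that loads ubiquitin in mitosis, gave 11.92, 11.94 and 11.77, and CDC20, an activator of the anaphase-promoting complex, gave 11.27, 11.32 and 10.98. MKI67, the Ki-67 antigen, gave 9.95, 10.05 and 9.60. The marginal members were E2F1 and ORC1, and ORC1, a subunit of the origin recognition complex, was at the floor in replicate 3, at 6.95, 7.08 and 6.16.

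Promoters of mitotic genes are known for CCAAT boxes, the binding motif of the factor NF-Y. Of the 30 clear proliferation genes, 23 had a window, and 20 of those (87.0%) held CCAAT on either strand between 250 bases before and 50 after the start. The share was 36.0% over all windows and 37.6% over those of clear genes. The 120 bases before the annotated start are shown for 3 of them, on the gene's strand of GRCh38.p14, with CCAAT and its reverse complement ATTGG in capitals. Each holds the motif in 2 copies, the nearer beginning 55, 55 and 53 bases before the start.
CCNB1, chr5:69167030-69167149, plus strand: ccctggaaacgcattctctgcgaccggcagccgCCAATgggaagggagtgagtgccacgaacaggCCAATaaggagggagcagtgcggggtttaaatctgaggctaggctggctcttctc
CDC20, chr1:43358861-43358980, plus strand: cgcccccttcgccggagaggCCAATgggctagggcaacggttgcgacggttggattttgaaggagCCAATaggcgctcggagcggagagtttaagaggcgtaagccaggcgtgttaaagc
TOP2A, chr17:40417897-40418016, minus strand: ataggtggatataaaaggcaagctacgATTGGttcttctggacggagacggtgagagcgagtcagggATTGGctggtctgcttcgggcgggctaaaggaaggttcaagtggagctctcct
A motif match describes the letters and not the binding of a factor.

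Promoter composition varied with gene level across all genes. Windows of 300 bases were matched by symbol for 15360 of the 19775 genes (77.7%). A window was called CG-rich when over 50% of its bases were G or C and its CG pairs exceeded 0.6 of the number its base content predicts. With genes ranked by level in 10 equal bins, 33.9% of the lowest bin had a CG-rich window, 57.8% of bin 5 and 87.7% of the highest. The motif GGGCGG, the core of SP1 sites, which holds a CG pair itself, was present on either strand in 32.0% of windows in the lowest bin and in 72.0% in the highest. TATAAA ran the other way through most of the range, from 5.21% in the lowest bin to 0.80% in bin 7, and stood at 2.49% in the highest. The AP-1 motif TGAGTCA, on either strand, was found in 4.93% of the lowest bin, 2.25% of bin 8 and 3.44% of the highest, and in 3.74% of all windows. CCAAT lay between 32.4% and 39.2% over the bins. These shares are descriptions across genes, which are not independent of each other.

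A clear secreted gene and one at the floor show the contrast in base composition. The 120 bases before the start are given on the gene's strand of GRCh38.p14, with each CG pair in capitals.
FN1, chr2:215436069-215436188, minus strand: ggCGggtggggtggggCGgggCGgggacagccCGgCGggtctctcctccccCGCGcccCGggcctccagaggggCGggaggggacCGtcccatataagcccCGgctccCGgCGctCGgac
CXCL13, chr4:77511633-77511752, plus strand: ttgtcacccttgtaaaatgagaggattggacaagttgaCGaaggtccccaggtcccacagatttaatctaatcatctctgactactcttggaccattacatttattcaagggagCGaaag
FN1 held 14 CG pairs in this stretch and CXCL13, a chemokine that attracts B cells and was at the floor at 3.12, 3.02 and 3.29, held 2. Of 29 cytokine and chemokine genes at the floor with a window, 4 (13.8%) were CG-rich, against 38.1% of all genes at the floor. Of 11 clear receptor tyrosine kinase genes with a window, 90.9% were CG-rich, near the 86.1% of all clear genes. Receptor tyrosine kinase genes at the floor were CG-rich in 13 of 20 windows (65%), and clear cytokine and chemokine genes in 2 of 4 (50%). The 2 lists thus differed within each class too.

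**Figure D5:**
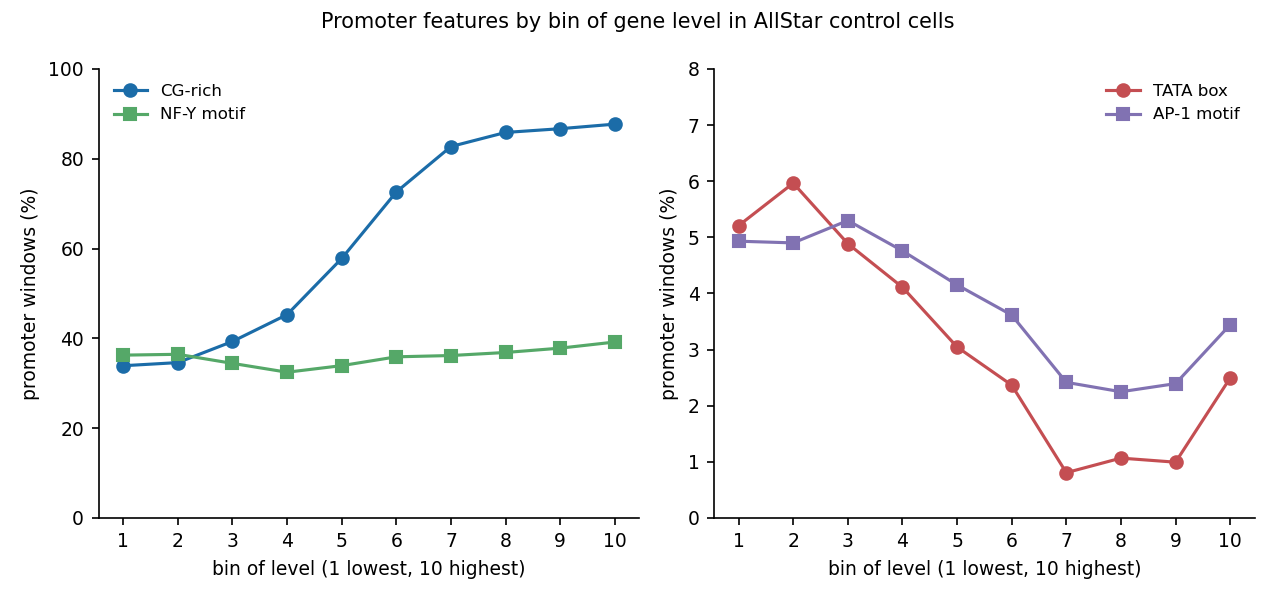
Share of promoter windows (y axis, percent) with each feature by bin of gene level in AllStar replicates 1 and 2 (x axis, 10 bins from 1 lowest to 10 highest), for CG-rich windows and the NF-Y motif (left) and the TATA box and AP-1 motif (right, on a scale that ends at 8%). CG-rich windows go from 33.9% to 87.7%, and the TATA box is at 0.80% in bin 7 and 2.49% in the highest.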

How the data were processed

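RNA from 9 samples was measured on HG-U133 Plus 2.0 arrays. Per the labels' protocols, the authors normalised the scanner signals by RMA, so each deposited number is a probe set's log2 signal. The submitters' processing notes also name limma, which was not needed here. Of 54675 probe sets, 62 controls were left out. The platform annotation gave 41091 of the rest 1 gene, 1801 several and 11721 none, and only the first kind was named. For example, 1 probe set each of ID2, ABCB1, FGF7 and HLA-DQA1, all called at the floor, was therefore not used. It was checked against RefSeq, where the gene IDs of 54 probe sets were not listed. Genes of the lists with no such probe set were not analysed here. Each gene took its probe set with the highest mean of AllStar replicates 1 and 2.

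Where a gene is named, the rule was the upper 25 genes, up to 6 highest and 6 lowest at the floor per list, up to 4 per list whose class changed in replicate 3, and a set of breast cancer genes. The members and lists were chosen with earlier results of these data known. Genes named or drawn outside the rule (for example SNAI2, ZEB2, CDH2, CDH11, CLDN7, GAS6, HBEGF, MMP1, MMP14, CD274, MYC and those of the chromosome 9 stretch) were chosen after their values were seen, as were the promoters shown and the 2 log2 margin for clear genes. Promoter windows (250 bases before to 50 after the start) came from RefSeq, GRCh38.p14. The source held 35116 windows, and the first listed for each gene was used, which may not be its main promoter. Motifs were counted by exact match, and none of the 4 contains another. The number of arrays limits the precision. Python 3.11.15 with pandas 2.3.3, numpy 2.4.6 and matplotlib 3.10.9 was used.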

Additional observations from a re-analysis of the deposited data

How the results depend on the processing

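The other settings were other probe set choices, floors (90th and 99th percentile, or a fixed 6), repeated quantile normalisation and each left-out replicate. Over them, counts above the floor ranged from 8649 to 12636 genes and 415 to 658 list members, beside 11613 and 602. The lower ends, 8649 and 415, came without _x_at and _s_at probe sets. There, genes with no probe set of another kind were not measured, so these counts cover fewer genes. The margin of 2 log2 units, chosen after seeing the data, left 7009 genes and 381 members. The median level of the 327 named genes, 6.59, was 5.96 with the median of each gene's probe sets and 5.73 without _x_at and _s_at probe sets, where 262 had a value. That median was 6.41 without replicate 1 and 6.38 without replicate 2. Leaving out replicate 3 repeats the main setting. With median probe sets, 173 of the 327 single levels moved by more than their SD over the 3 AllStar arrays. Without _x_at and _s_at probe sets, 58 of the 262 did. The gap in CG-rich windows between the highest and lowest of the 10 bins of level, 53.8 percentage points, was 50.8 with median probe sets and 53.7 in replicate 3 alone. By list, median probe sets left 9 basal genes, 10 integrins and 4 leukocyte markers above the floor. Without _x_at and _s_at probe sets, 13 mesenchymal, 9 luminal, 16 antigen presentation, 28 growth factor and 24 protease or inhibitor genes remained measured above it. So did 17 matrix genes, 26 lineage transcription factors and 5 markers of liver, neurons, melanocytes, muscle and fat. The 99th percentile and the fixed floor each left 3 cancer-testis genes above. Calls on 1 array platform depend on probes: genes at the floor were not detectable here, which does not show that their RNA was absent. No paired analysis was possible because no result comes from a test: the levels and counts set beside the mimic arrays are descriptions.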

Other observations

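Among the other long runs of genes at the floor, the 24 genes on chromosome 17 run from KRTAP4-9 to KRT13 and a run of 16 on chromosome 12 goes from KRT85 to KRT78, both keratin clusters. The 24 on chromosome 4 run from TMPRSS11E to JCHAIN. A run of 17 on chromosome 5 ends at CDH6, a cadherin of kidney and brain. The share of genes above the floor differed by autosome, from 48.8% on chromosome 21 and 49.6% on 13 to 64.1% on 22 and 65.2% on 16.

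Larger gene families also differed. Of 502 ZNF zinc finger genes, 323 (64.3%) were above the floor, near the 58.7% of all genes. Only 93 (18.5%) were clear, against 35.4% of all genes, while 70 of 82 respiratory chain subunits and 44 of 50 proteasome subunits were. None of 20 taste receptor genes was above the floor, and 20 of 59 histone genes (33.9%) were.

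Against the mimic arrays, 55 genes were at the floor on all 3 AllStar arrays and above it on all 6 mimic arrays, and 0 the other way. The higher mimic mean was at least 1 log2 unit over the AllStar mean in 4 of the 55. OSCP1, 1 of those 4 and a gene of cilium biology, chosen after its values were seen, gave 5.61, 5.41 and 5.35 in AllStar cells and 6.75 to 7.98 on the mimic arrays. The mimic floors, 5.67 to 5.73, were lower than the AllStar floors, 5.77 to 6.17. Some of the 55 read higher in AllStar replicate 3 than on any mimic array. LAMA2, for example, gave 5.70, 5.68 and 6.13 in AllStar cells and 5.74 to 5.91 on the mimic arrays. The 55 are therefore not a count of genes that rose, and the part of the floors in these counts was not tested.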
